A study of Mus musculus with 32 samples.

Results

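The genes described here encode the 3 large enzyme families of phase II drug metabolism: the UDP-glucuronosyltransferases (Ugt), the glutathione S-transferases (Gst) and the sulfotransferases (Sult). All genes of the deposited table with a symbol of these families were taken, pseudogene symbols left out, which gave 64 of 27179 genes: 21 Ugt, 22 Gst and 21 Sult genes. DNA methylation was measured in mouse brain, heart, kidney and liver by MeDIP-seq, in which single-stranded DNA is pulled down with an antibody against 5-methylcytosine (5mC) and sequenced. Each organ was either flash-frozen (frozen) or fixed in formalin and embedded in paraffin (FFPE), which gave 8 groups by organ and preservation. Strain, sex and age of the mice are not stated in the labels, nor is any allele or drug. The labels list 2 samples of 5mC libraries and 2 of unselected Input DNA in each group. The deposited table has 1 column per group, taken here as 5mC and called a library. Input was not analysed here. A value is therefore the number of pulled-down reads on a gene, in reads scaled by library (CPM, with 0.5 reads added as deposited). It is not a percentage of methylated cytosines. The scaling did not follow the library's total on genes alone. A count of 3 reads, without the added 0.5, came to 0.896 CPM in FFPE brain, which held 3050175 reads on genes. The same count came to 1.14 CPM in FFPE liver, which held 3102535. The basis of the scaling was not worked out. Its part in the organ differences was not tested beyond the alternative scalings given below.

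Phase II enzymes attach a polar group to drugs, hormones, bile pigments and other small molecules, which makes them easier to excrete. The Ugt enzymes transfer glucuronic acid from UDP-glucuronic acid, the Gst enzymes join glutathione to reactive electrophiles, and the Sult enzymes transfer sulfate from the donor PAPS. Liver carries most of this capacity, and kidney and intestine add to it. Promoter methylation of tissue-specific genes is often lower in the tissue that uses them, whereas methylation inside a gene body can go either way, and the deposited values do not separate the regions of a gene.

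The windows before the gene starts show how much there is for the antibody to bind near the start of these genes, since 5mC in mouse sits mostly in CG dinucleotides. The 4 sequences below lie before a RefSeq start of 3 genes whose signal was lower in liver and of 1 whose signal was higher. The window of Gsta3 is placed by a later start than that of the annotated gene and so reaches a short way into it. Each is 250 bases long, 5′ to 3′ on the gene's strand, from RefSeq on GRCm38.p6, with CG dinucleotides in capitals. They lie at chr1:88165762-88166011 on the plus strand for Ugt1a5, chr1:21240335-21240584 on the plus strand for Gsta3, chr3:108017974-108018223 on the minus strand for Gstm1 and chr6:142804467-142804716 on the minus strand for Sult6b2.
Ugt1a5: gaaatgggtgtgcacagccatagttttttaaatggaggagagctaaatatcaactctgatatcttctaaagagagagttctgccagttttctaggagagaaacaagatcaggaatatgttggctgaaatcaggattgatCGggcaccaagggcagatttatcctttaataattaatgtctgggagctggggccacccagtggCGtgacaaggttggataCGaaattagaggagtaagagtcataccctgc
Gsta3: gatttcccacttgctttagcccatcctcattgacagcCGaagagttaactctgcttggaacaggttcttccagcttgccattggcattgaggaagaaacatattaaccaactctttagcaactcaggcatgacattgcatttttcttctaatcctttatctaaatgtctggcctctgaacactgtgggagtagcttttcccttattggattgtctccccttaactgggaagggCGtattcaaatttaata
Gstm1: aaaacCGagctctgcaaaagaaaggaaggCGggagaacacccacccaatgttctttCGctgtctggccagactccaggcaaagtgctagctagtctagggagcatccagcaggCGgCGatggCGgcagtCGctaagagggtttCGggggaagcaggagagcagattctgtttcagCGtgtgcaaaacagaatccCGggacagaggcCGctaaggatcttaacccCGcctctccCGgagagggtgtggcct
Sult6b2: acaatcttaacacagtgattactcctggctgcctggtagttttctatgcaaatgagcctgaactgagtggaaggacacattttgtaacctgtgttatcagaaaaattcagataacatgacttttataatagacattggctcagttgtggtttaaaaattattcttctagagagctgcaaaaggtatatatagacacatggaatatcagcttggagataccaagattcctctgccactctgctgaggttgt
The Ugt1a5 window holds 3 CG dinucleotides, that of Gsta3 2, that of Gstm1 13 and that of Sult6b2 none. The signal was counted over genes and cannot be placed in these windows.

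Most members were sparse in CG near a RefSeq start. A window of 300 bases, from 250 before to 50 after the start, was given for 56 of the 64 members. These windows held a median of 2 CG dinucleotides (range 0 to 40), against a median of 7 in the 27025 windows of the whole table. At most 4 CG were found in 39 of the 56 windows (69.6%), against 38.3% of all windows. By family, 18 of 19 Ugt windows (94.7%) and 14 of 17 Sult windows (82.4%) held at most 4, but 7 of 20 Gst windows (35%). The exception among the Ugt genes was Ugt8a, which makes the galactolipids of myelin, with 40 CG. Of the 10 windows of genes that were lower in liver, 8 held at most 4 CG (80%), and so did 30 of the 44 windows of genes without a liver call (68.2%). Some windows are placed by a start inside the annotated gene. Those of Sult1a1, Sult3a1 and Sult3a2 lie wholly inside and hold 0 CG each. Those of Gstm4, Gstt1 and Sult5a1 do so too, with 14, 8 and 5 CG. On the minus strand, the Sult1a1 window begins at 126676668 and the gene at 126690443.

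The letters of response elements known from detoxification genes were searched in the same windows on both strands. The antioxidant response element, which binds the stress regulator Nrf2, was searched as TGACNNNGC, and the xenobiotic response element, which binds the dioxin receptor, as GCGTG. The first was found in 2 of 56 member windows (3.57%), those of Gsta3 and Gstm5, against 12.4% of all windows. In Gsta3 it reads TGACATTGC, 121 bases before the start, and lies in the printed sequence. The second was found in 10 of 56 member windows (17.9%), against 32.5% of all, and the Ugt1a5 and Gstm1 windows hold it 49 and 76 bases before the start. The shorter motif holds a CG itself. These are matches of letters only.

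**Figure D1:**
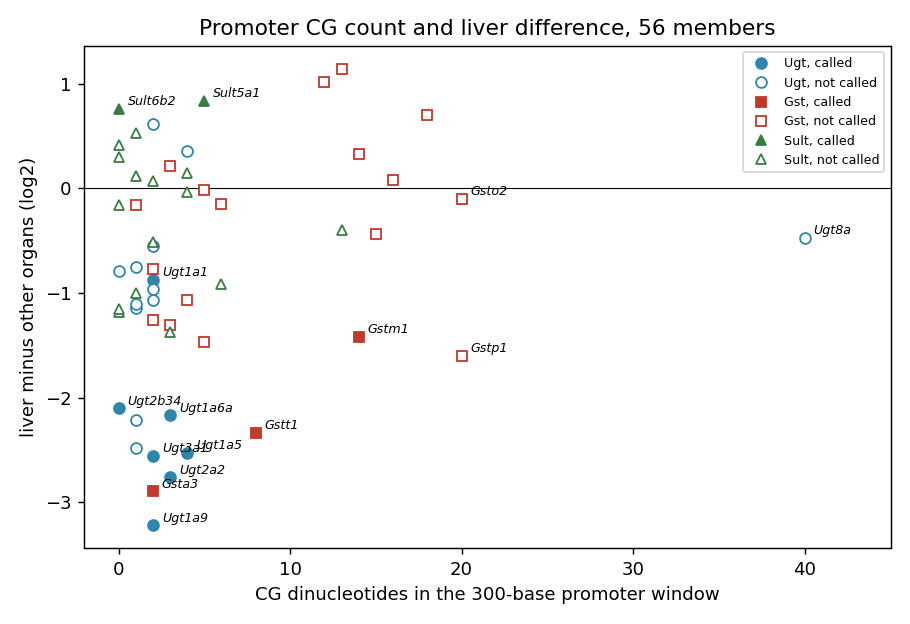
Liver difference (log2, liver minus the mean of the other 3 organs) against the number of CG dinucleotides in the 300-base promoter window, 1 point for each of 56 members. Shapes and colours stand for the 3 superfamilies and filled points for adjusted p under 0.05. Points lie mostly at 4 CG or fewer, and Ugt8a stands alone at 40.

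The libraries held 2164158 (FFPE kidney) to 3699218 (frozen liver) reads on genes, and the members were thinly covered in all of them. Over members and libraries the median was 21 reads, and a member's own median ran from 4 to 158 reads. The median of the members' mean log2 CPM was 2.70, against 4.21 for all 25982 genes tested, with no correction for gene length, and 9 of the 64 members reached that median of all genes. A count of 0 allows up to 3 reads, which is 0.876 to 1.42 CPM, counting error only. The frozen kidney library stood apart: 2999 genes were at 0 reads there (880 to 2380 elsewhere), 5 of them members (0 to 2 elsewhere), and 56.2% of its counts of 1 to 20 reads were even (48.7 to 51.8% elsewhere). As a check of the organ labels, 7 of 8 hepatocyte genes were lower in liver, 4 of 6 cardiomyocyte genes lower in heart and 4 of 6 neuron genes lower in brain, while 2 of 6 oligodendrocyte genes were lower in brain and 0 of 6 proximal tubule genes were called in kidney. Genes of other cell types also moved. Higher in brain (8.61% of all genes) were 4 of 8 hepatocyte genes (median 0.83) and 2 of 4 leukocyte genes (median 0.87). So were 1 of 6 proximal tubule and 1 of 4 endothelium genes. Higher in liver (11.8% of all genes) were 4 of 6 cardiomyocyte, 2 of 6 neuron, 1 of 6 oligodendrocyte and 2 of 4 endothelium genes. Lower in liver (7.42% of all genes) were 1 endothelium, 1 proximal tubule and 1 leukocyte gene. All 4 leukocyte genes had a negative difference in liver (median -0.80). In heart 2 of 4 endothelium and 1 of 6 oligodendrocyte genes were lower (1.97% of all genes), and in kidney 1 of 6 neuron genes was higher (0.897%). Their part in the members' differences was not tested. In bulk tissue a different mix of cells and a different methylation per cell cannot be told apart.

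All 64 members were tested. Organ differences were estimated with limma on the deposited log2 values, as organ plus preservation, and called at a Benjamini-Hochberg adjusted p under 0.05 over all genes tested. Nothing says that the columns come from separate animals, so p-values measure only the spread between these columns. That spread is how far an organ difference changed between frozen and FFPE tissue. For each gene limma drew it toward the spread of genes with similar signal (13.1 prior against 3 residual degrees of freedom). A p-value therefore rests mostly on other genes, and a gene can be called although its own difference changed much.

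**Figure D2:**
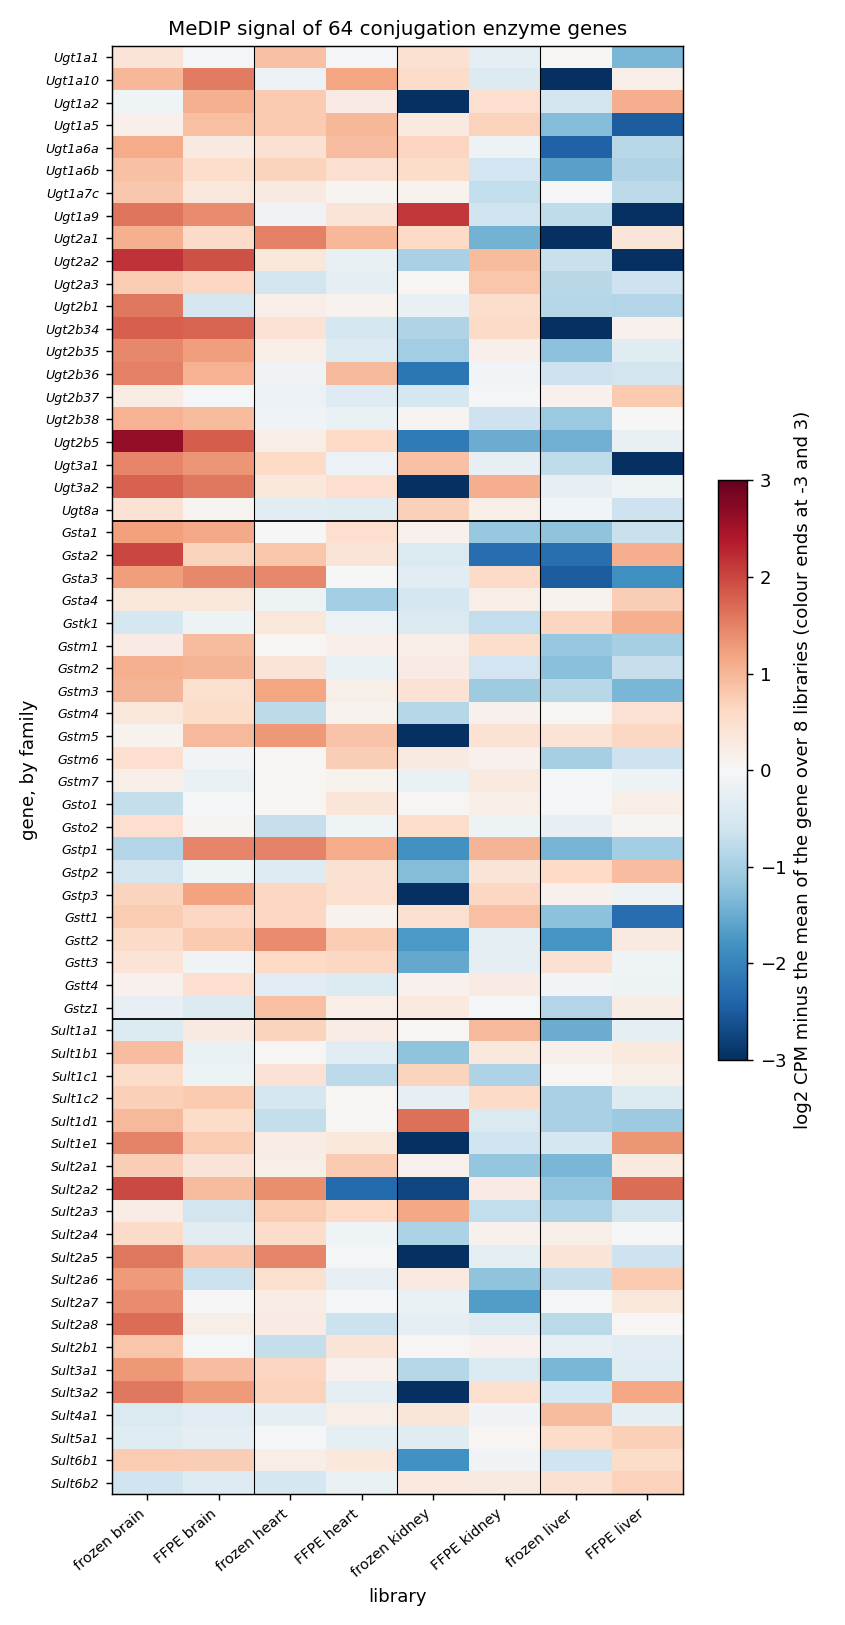
Log2 CPM of the 64 members in the 8 libraries, each gene centred on its own mean (colour from -3 to 3), with genes in rows by family and libraries in columns. The frozen brain column is mostly red, the liver columns hold many blue cells among the Ugt genes, and dark blue cells in the frozen kidney column mark members at or near 0 reads.

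In liver, the MeDIP signal of 11 members was lower than in the mean of the other 3 organs and that of 2 was higher. The lower members were 8 Ugt genes (Ugt1a9, Ugt2a2, Ugt3a1, Ugt1a5, Ugt1a6a, Ugt2b34, Ugt1a6b and Ugt1a1) and 3 Gst genes (Gsta3, Gstt1 and Gstm1). The higher members were both sulfotransferases, Sult5a1 and Sult6b2. Of all genes tested, 7.42% were lower in liver and 11.8% higher, so the members' shares were 17.2% lower and 3.12% higher. Among the 12991 genes whose mean lay below that of the middle gene, 8.07% were lower in liver and 0.777% higher, against 10 (18.2%) and 0 of the 55 members in that range. The median member differed by -0.63 on the log2 scale (all genes -0.10), with -0.97 in the frozen libraries alone and -0.41 in the FFPE libraries alone. The low-signal genes as a whole also lay low in liver, with a median of -0.50, against -0.79 for the 55 members among them; the part of signal level in the members' shift was not tested beyond this split, which was added after seeing the data. In 13 members (20.3%) both liver libraries lay below all 6 others, against 10.3% of all genes. In 4 (6.25%) both lay above, against 11.7% of all genes.

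The number of lower members rested on which libraries were used, and the number of lower genes in the whole table fell and rose with it. It was 5 without FFPE liver, 7 without FFPE heart or without frozen heart, and 17 without FFPE kidney. The 2 higher members were 1 without FFPE heart and 0 without either liver library. Scaling mattered as well: quantile normalization left 4 of the 64 members lower and 1 higher, and moved the members' median to -0.12. Of all 25982 genes, 1251 were then lower and 1256 higher, with a median of 0.004. The share of lower members was thus nearer to that of all genes than in the main fit. Centring each library on its median moved the median of all genes from -0.10 to 0.10 and left 8 lower and 2 higher members. Over all genes, 1240 were lower and 4832 higher after centring. The calls lost under quantile normalization were those of Gstt1, Sult6b2, Ugt1a6a, Ugt1a6b, Ugt1a9, Ugt2a2, Ugt2b34 and Ugt3a1, and those lost under centring were of Ugt1a6b, Ugt2a2 and Ugt2b34. Gsta3 was called lower in each of the 8 fits that left out 1 library.

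The Ugt1a genes carried the largest share of the liver calls. They lie as 1 cluster on chromosome 1 (GRCm38.p6, 88055411 to 88220002, 164.592 kb), in which alternative first exons are joined to common last exons. All but Ugt1a6b have the same annotated end, the Ugt1a1 gene overlaps the span of each of the 7 others, and the labels do not state how reads on the common part were shared out. The 8 genes are therefore not 8 independent measurements. Of the 8 genes, 5 were lower in liver, with a family median of -1.92 on the log2 scale.

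Ugt1a5 had the smallest adjusted p of all members in liver. Its signal was 13.1, 20.2 and 14.1 CPM in frozen brain, heart and kidney, and 22.0, 23.6 and 19.1 CPM in the FFPE libraries of these organs. In liver it was 4.82 CPM frozen and 2.08 CPM FFPE, or 16 and 5 reads. Both liver libraries lay below all 6 others, with no overlap. The difference was -2.53 ± 0.43 (SE, log2), 5.76-fold lower, with a limma adjusted p of 0.000831. It was -1.69 in frozen and -3.37 in FFPE tissue alone, and the call was lost without FFPE liver.

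Ugt1a9, whose enzyme conjugates many phenolic drugs, had the largest difference. It held 9.80 and 8.51 CPM in frozen and FFPE brain, 2.98 and 4.17 in heart, and 13.8 and 2.13 in kidney. In liver it held 6 reads (1.90 CPM) frozen and 0 reads FFPE. The other organs themselves spread widely, and the 2 kidney libraries lay at its highest and lowest value outside liver. The fitted difference of -3.22 ± 0.82 (limma adjusted p = 0.0118) depends on the 0.5 reads added to that 0, and the call was lost without FFPE heart or FFPE liver.

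Ugt1a6a and Ugt1a6b, enzymes for small planar phenols, were also lower. Ugt1a6a held 1.31 and 3.98 CPM in frozen and FFPE liver and 6.38 to 15.2 CPM elsewhere (-2.17 ± 0.56, limma adjusted p = 0.0134). Ugt1a6b held 2.19 and 3.60 CPM in liver and 4.49 to 12.3 CPM elsewhere (-1.68 ± 0.53, limma adjusted p = 0.0359). Neither gene's liver libraries overlapped with the rest. Ugt1a6a lost its call without FFPE heart or frozen liver, and Ugt1a6b without any 1 of the brain, heart or liver libraries.

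Ugt1a1, the enzyme that conjugates bilirubin, held 41.1, 58.1 and 43.3 CPM in frozen brain, heart and kidney and 32.9 CPM in frozen liver. The FFPE values were 30.9, 30.4 and 25.8 CPM in the same 3 organs and 12.3 CPM in liver. Frozen liver thus lay above the FFPE libraries of the other organs, and the groups overlapped, although liver was lowest within each preservation. The difference was -0.87 ± 0.24 (limma adjusted p = 0.0176), and it was not called without FFPE brain, frozen heart or FFPE liver.

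The other 3 genes of the cluster were not called. Ugt1a10 differed by -2.48 ± 0.93 (limma adjusted p = 0.0737) with 0 reads in frozen liver, and Ugt1a7c by -0.55 (adjusted p = 0.342). Ugt1a2 differed by 0.36 (adjusted p = 0.756), with 2 reads in frozen kidney and 34 in FFPE liver. The order of the genes along the chromosome did not sort them by their difference.

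**Figure D3:**
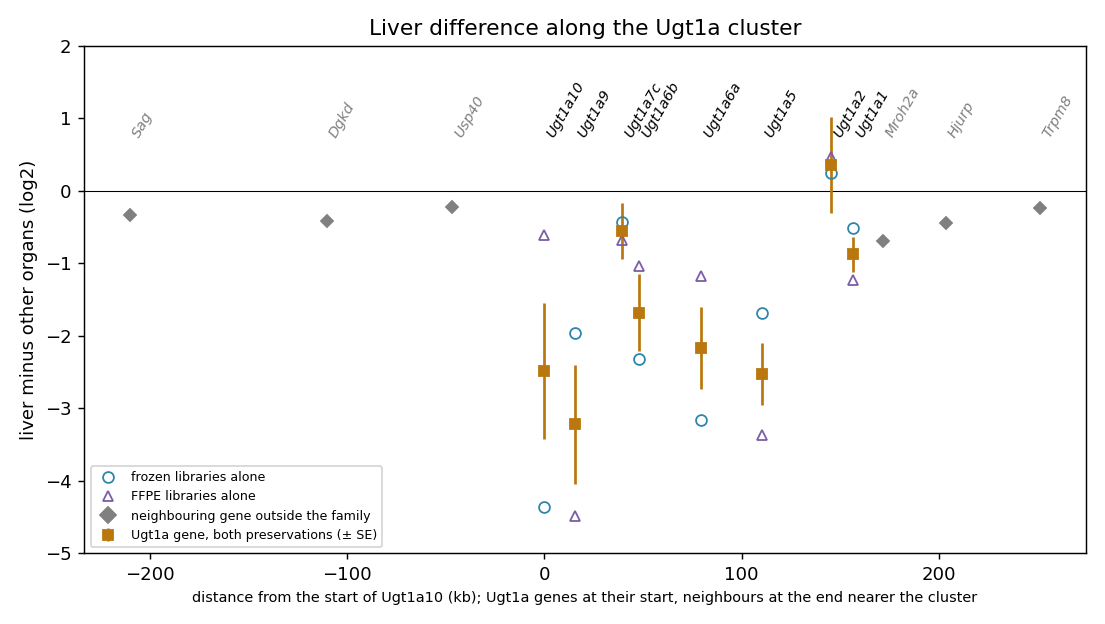
Liver difference (log2, liver minus the mean of the other 3 organs) of the 8 Ugt1a genes at their start and of 6 neighbouring genes, by distance in kb from the start of Ugt1a10. Squares are the fit with SE bars, circles the frozen and triangles the FFPE libraries alone, and grey diamonds the neighbours. The 5 called Ugt1a genes lie at -0.87 to -3.22, and the neighbours between -0.69 and -0.21.

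The Ugt2 genes, whose enzymes conjugate steroids, bile acids and drugs, lie together on chromosome 5. Their liver calls were fewer: 1 of 3 Ugt2a genes and 1 of 7 Ugt2b genes. Ugt2b34 held 2 reads (0.730 CPM) in frozen liver and 20 (7.77 CPM) in FFPE liver, against 3.79 to 24.8 CPM elsewhere. The liver libraries overlapped with kidney and heart (-2.10 ± 0.68, limma adjusted p = 0.0397). Ugt2a2 held 4 reads in frozen liver and 0 in FFPE liver, against 3 to 26 reads elsewhere (-2.76 ± 0.92, limma adjusted p = 0.0448). Its span overlaps that of Ugt2a1, and frozen kidney, with 3 reads, lay between the liver libraries in CPM. Both calls rested on few reads, and each was lost without frozen brain or frozen heart; Ugt2b34 was also lost without frozen liver, and Ugt2a2 without FFPE brain, FFPE heart or FFPE liver. Ugt2b37, the Ugt2b gene with the highest mean, held 16.8 and 26.3 CPM in liver and 10.8 to 17.7 elsewhere, with no call (0.62, adjusted p = 0.225). Ugt2a3 held 7.45 and 8.52 CPM in liver, below the 8.95 to 23.4 CPM elsewhere, and missed the threshold (-0.97, adjusted p = 0.0716).

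Ugt3a1, of a small Ugt family whose enzymes use sugars other than glucuronic acid, held 13.1 and 11.8 CPM in frozen and FFPE brain, 7.20 and 4.17 in heart and 8.65 and 4.02 in kidney. In liver it held 2.77 and 0.568 CPM, the latter from 1 read. The liver libraries were the lowest of the 8 (-2.56 ± 0.62, limma adjusted p = 0.009), and the call was lost without FFPE liver and under quantile normalization. Its neighbour Ugt3a2 had 3.65 and 3.98 CPM in liver and no call (-0.26, adjusted p = 0.884), with 0 reads in frozen kidney. Ugt8a, the myelin galactolipid enzyme, held 35.2 and 27.6 CPM in brain, 20.5 and 20.1 in heart, 42.4 and 29.5 in kidney and 24.4 and 16.9 in liver. It was called in no organ, and in each preservation its brain value lay below that of kidney. Over the 21 Ugt genes, 19 had a negative liver difference (55.6% of all genes), with a median of -1.10. Most of them are low-signal genes, which as a whole had a liver median of -0.50. The Ugt median stayed negative under quantile normalization (-0.77) and centring (-0.90).

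**Figure D4:**
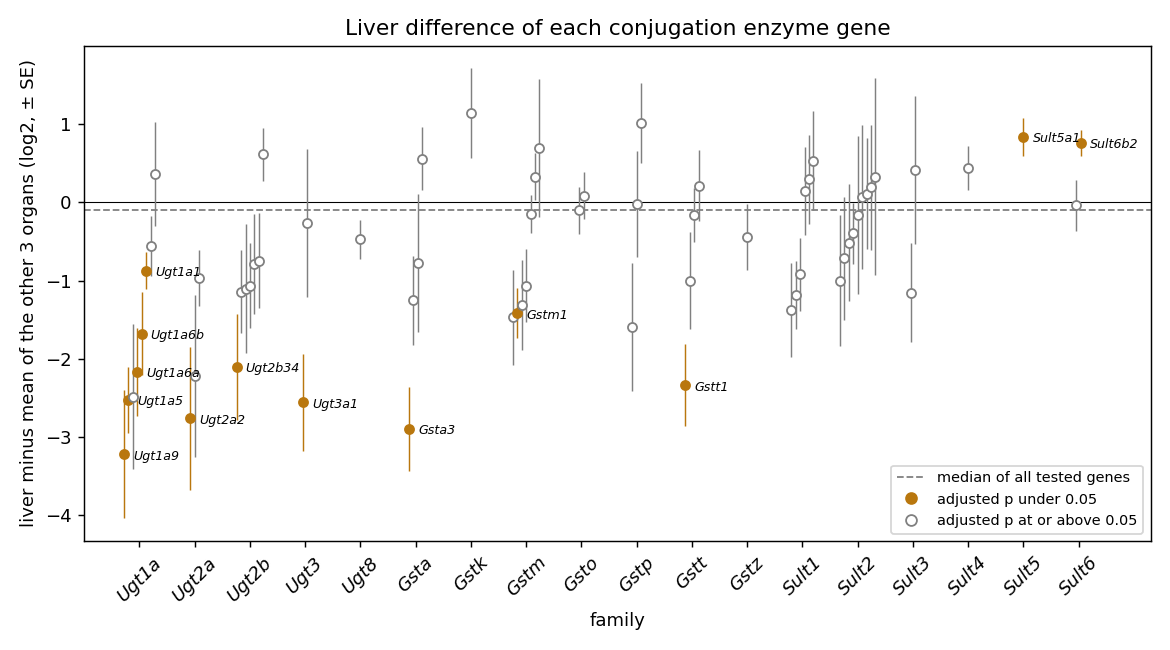
Liver difference (log2, ± SE) of each of the 64 members by family, filled where the adjusted p was under 0.05. The dashed line is the median of all tested genes, -0.10. Called Ugt and Gst genes lie below it, and Sult5a1 and Sult6b2 above.

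Among the glutathione S-transferases, Gsta3 had the largest liver difference. This alpha-class enzyme detoxifies the activated form of aflatoxin in mouse. Its signal was 17.7, 20.2 and 5.92 CPM in frozen brain, heart and kidney and 20.2, 7.35 and 11.1 CPM in the FFPE libraries. In liver it was 1.31 CPM frozen and 2.08 CPM FFPE, or 4 and 5 reads. The 2 liver libraries were close to each other and below the other 6, among which kidney and FFPE heart were the lower. The difference was -2.90 ± 0.54 (limma adjusted p = 0.00165), 7.44-fold lower, with -3.29 in frozen and -2.50 in FFPE tissue.

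Gstm1, the main mu-class enzyme, held 19.4, 17.0 and 18.4 CPM in frozen brain, heart and kidney, and 31.5, 18.1 and 23.4 CPM FFPE. Liver held 7.45 CPM frozen and 8.14 CPM FFPE, from 25 and 21 reads. The groups did not overlap, and the preservations differed little in liver. The difference was -1.42 ± 0.32 (limma adjusted p = 0.00529), 2.67-fold lower. Gstt1, a theta-class enzyme for small halogenated molecules, held 6.95 to 12.1 CPM in the other 6 libraries and 2.77 and 1.33 CPM in liver, from 9 and 3 reads (-2.34 ± 0.53, limma adjusted p = 0.00572). It did not overlap with the rest either. Both calls were lost without FFPE liver and kept without each of the other libraries, and that of Gstt1 was also lost under quantile normalization.

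The other 19 Gst genes were not called in liver. The Gst median was -0.30 on the log2 scale and -0.05 under quantile normalization. Members with the highest mean of their class included Gstm7 with 24.3 to 34.3 CPM over all libraries (liver -0.15, adjusted p = 0.719), and Gsta4, an enzyme for lipid peroxidation products, with 13.3 and 20.6 CPM in liver and 6.15 to 15.7 elsewhere (0.56, adjusted p = 0.363). Gstk1, a mitochondrial and peroxisomal enzyme, was higher in both liver libraries (8.03 and 10.8 CPM) than in the others (3.07 to 6.49 CPM), without passing the test (1.14, adjusted p = 0.179). Gsto2, Gstp3, Gstt4 and Gstz1 differed in liver by -0.10, -0.02, -0.16 and -0.44, all with adjusted p over 0.05. The liver and other libraries overlapped in each of these 4.

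Among the 21 sulfotransferases 2 were higher in liver and 0 lower. Sult6b2 held 41.1 and 47.3 CPM in frozen and FFPE brain, 43.7 and 54.6 in heart, 76.4 and 74.9 in kidney, and 85.1 and 100.2 in liver. The order was brain, heart, kidney and liver in both preservations, with brain and heart overlapping. It also had the highest median count of any member, with 98 to 291 reads. The liver difference was 0.76 ± 0.17 (limma adjusted p = 0.00472), 1.69-fold higher.

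Sult5a1 held 20.5 to 27.6 CPM in the 6 libraries of brain, heart and kidney, and 38.7 and 43.4 CPM in frozen and FFPE liver. The liver values stood apart from a narrow range (0.84 ± 0.24, limma adjusted p = 0.0249). Both Sult calls were lost without either liver library, that of Sult5a1 also without FFPE heart, and that of Sult6b2 under quantile normalization. Sult1a1, the main phenol sulfotransferase, held 3.65 and 8.52 CPM in liver and 7.71 to 20.1 CPM elsewhere, an overlap, and was not called (-1.18, adjusted p = 0.0695). Sult2b1, a cholesterol sulfotransferase, held 11.8 and 11.2 CPM in liver and 8.60 to 25.2 CPM elsewhere (-0.40, adjusted p = 0.525), and Sult3a1 was not called (-1.15, adjusted p = 0.225). The 8 Sult2a genes, bile acid and steroid sulfotransferases, held 0 to 21 reads in any library, too few to show a difference of moderate size. The Sult median in liver was 0.07, and it was -0.07 with voom weights and 0.49 after quantile normalization.

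**Figure D5:**
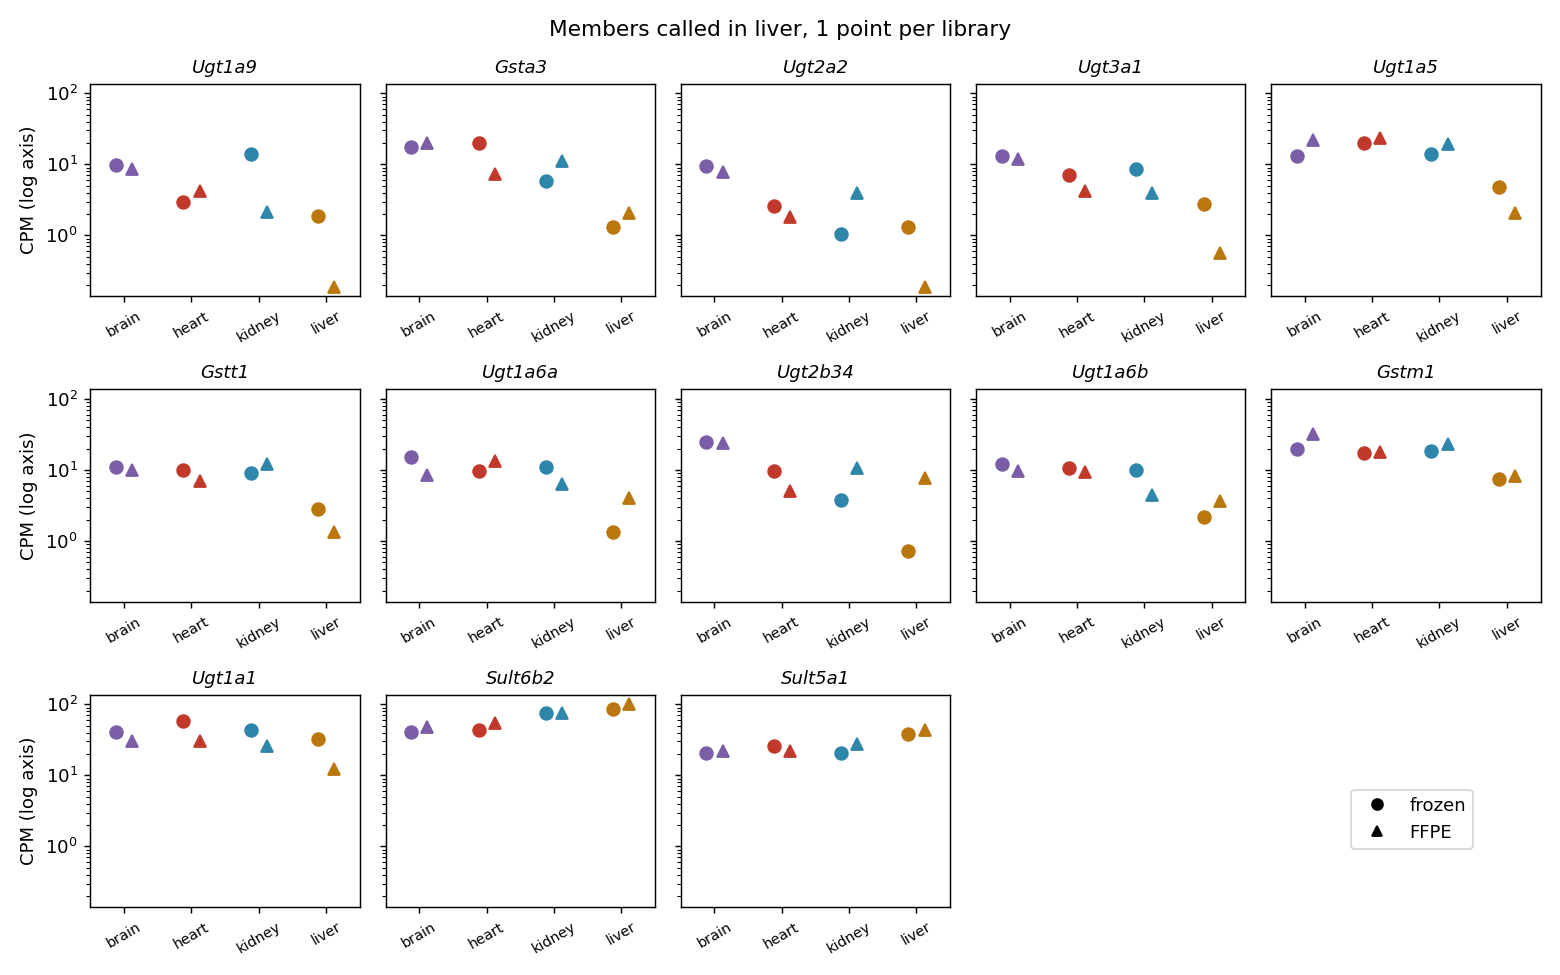
CPM on a log axis of the 13 members called in liver, in the 4 organs, with circles for frozen and triangles for FFPE libraries, ordered from the largest negative to the largest positive difference. In Gsta3, Gstm1 and Ugt1a5 both liver points lie below all others, and in Sult5a1 and Sult6b2 above.

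Set against kidney alone, the other conjugating organ, liver differed in 1 member. Ugt1a5 held 14.1 and 19.1 CPM in kidney and 4.82 and 2.08 CPM in liver (-2.38 ± 0.52, limma adjusted p = 0.0303). Of all genes 0.754% were lower and 1.14% higher in this comparison by adjusted p. By limma 16 members had an unadjusted p under 0.05, a share that was not worked out for all genes. The call was lost without either heart library, which enter only through the shared spread, and without FFPE liver. Without FFPE kidney 4 members were lower and 8 higher, and without frozen kidney 3 were lower. Liver and kidney were each the organ of lowest signal for many members. Of the 64 members, liver was lowest in 33 (33.2% of all genes) and kidney in 21 (23.8% of all genes).

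No member was called in kidney against the other 3 organs, where 1.46% of all genes were called (0.897% higher and 0.566% lower). Both kidney libraries lay below all others in 4 members (6.25%, against 4.38% of all genes) and above them in none (3.53% of all genes). By limma 14 members had an unadjusted p under 0.05. The share of all genes under this looser threshold was not worked out, so the count has no background to be read against. The kidney libraries agreed least with each other: the median absolute difference between FFPE and frozen was 1.03 over the members, against 0.54 over all genes, and 0.42 to 0.64 over the members in the other organs. Gstm5, Sult2a2, Sult2a5, Sult3a2 and Ugt3a2 had 0 reads in frozen kidney and 2 to 19 reads in FFPE kidney. Ugt3a2 shows this best, with 19 reads (9.22 CPM) in FFPE kidney. Sult1e1, the estrogen sulfotransferase, held 2 and 8 reads in frozen and FFPE kidney (0.759 and 4.02 CPM), below the 4.24 to 17.3 CPM of the other libraries (-2.41 ± 0.63, limma adjusted p = 0.0654). Sult6b1 came closest to a call, with 6.83 and 22.4 CPM in kidney and 15.9 to 40.6 CPM elsewhere (-1.28 ± 0.32, limma adjusted p = 0.0568), and passed when 1 CPM was added before the log. Without FFPE kidney, which leaves frozen kidney as the only kidney library, 10 members were lower, without FFPE brain 2, and without frozen kidney 0.

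In brain, 7 members were higher and 1 was lower than in the mean of the other 3 organs, where 8.61% of all genes were higher and 12.8% lower. In the low-signal genes 10.1% were higher and 1.38% lower, against 6 (10.9%) and 0 of 55 members, so the share of higher members was near the background. The median member differed by 0.85 (all genes 0.11). The low-signal genes as a whole had a median of 0.68, against 0.93 for the 55 members among them. The part of signal level in the members' shift was not tested beyond this split. All 21 Ugt genes had a positive difference, with a median of 1.09. A negative brain difference was found in 44.6% of all genes and 15.6% of members. The brain and liver comparisons use the same 8 libraries and are not independent, and 4 of the 7 (Gsta3, Ugt2a2, Ugt2b34 and Ugt3a1) were also lower in liver. In 16 members (25%) both brain libraries lay above all others, against 16.5% of all genes. In 2 (3.12%) both lay below, against 11.7% of all genes.

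The members called higher in brain included 3 Ugt2b genes, of which Ugt2b5 had the largest difference of the 7. It held 12.3 and 7.02 CPM in frozen and FFPE brain, 2.28 and 2.98 in heart, 0.455 and 0.709 in kidney and 0.730 and 1.70 in liver. Outside brain it had 1 to 7 reads in any library. The difference was 2.97 ± 0.82 (limma adjusted p = 0.0181). Ugt2b34 held 24.8 and 23.7 CPM in brain and at most 10.6 CPM elsewhere (2.36 ± 0.68, limma adjusted p = 0.0218). Ugt2b35 held 17.7 and 15.7 CPM in brain and 2.77 to 7.55 CPM elsewhere (1.79 ± 0.54, limma adjusted p = 0.0284). In all 3 genes the brain libraries stood above the other 6. Ugt2a2 and Ugt3a1 did so too, with differences of 2.72 and 1.86, whereas Gsta3 (1.79) reached the same 20.2 CPM in frozen heart as in FFPE brain. Sult6b1 was the best covered of the 7, at 40.6 and 40.2 CPM in brain and 6.83 to 35.0 CPM elsewhere (0.99 ± 0.32, limma adjusted p = 0.0375). Sult6b2 was the 1 lower member (-0.66 ± 0.17, limma adjusted p = 0.0107).

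The brain calls depended on the libraries used, and the number of genes higher in brain over the whole table fell and rose with the library left out too. Under quantile normalization 2471 of 25982 genes were higher in brain, against 2238 in the main fit. The count of higher members was 0 without frozen brain or FFPE heart, 1 without FFPE brain, 18 without FFPE kidney and 14 without frozen kidney, and quantile normalization left 2. The lower call of Sult6b2 was lost without either brain library. Sult4a1, a sulfotransferase found mainly in neurons, held 26.1 and 27.6 CPM in brain and 28.6 to 68.5 CPM elsewhere. Its brain libraries were the lowest of the 8 but the difference was not called (-0.53 ± 0.28, limma adjusted p = 0.18).

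In heart no member was called, where 2.14% of all genes were called (0.162% higher and 1.97% lower). Both heart libraries lay above all others in Gstt3 (4.78% of all genes) and below them in Gstt4 (3.47% of all genes), without a call. An unadjusted p under 0.05 by limma was found in 5 members, a share that was not worked out for all genes. Without FFPE kidney 2 members, Gstm5 and Gstp3, were higher in heart.

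Between FFPE and frozen tissue over the 4 organs, 1 member was called, where 1.35% of all genes were called (0.735% lower and 0.62% higher in FFPE). Ugt1a1 was lower in FFPE in each organ: 30.9 against 41.1 CPM in brain, 30.4 against 58.1 in heart, 25.8 against 43.3 in kidney and 12.3 against 32.9 in liver. All 4 FFPE values lay below all 4 frozen values, a pattern found in 1.84% of all genes (-0.88 ± 0.21, limma adjusted p = 0.0464). The call was lost without any 1 of the brain, heart or liver libraries. An unadjusted p under 0.05 by limma was found in 4 members, a share that was not worked out for all genes. The direction of the members turned with the organ: 44 of 64 were lower in FFPE in brain and 39 in heart, but 37 were higher in FFPE in kidney and 45 in liver. Their medians were -0.22, -0.20, 0.43 and 0.37 in that order, against -0.01, 0.02, 0.06 and 0.001 for all genes tested. Each organ has 1 library per preservation, and genes with similarly low signal were not looked at separately.

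Genes around these enzymes were taken as lists and described by counts, to be read against the 7.42% of all genes lower and 11.8% higher in liver and the 8.61% higher in brain. Of 20 other conjugation enzymes, 4 were lower in liver and 0 higher (median -0.67, against -0.10 for all genes), and 5 were higher in brain. The 4 lower ones were 0 without FFPE liver, 2 without FFPE heart or either brain library, and 7 without FFPE kidney. The 5 higher in brain were 0 without frozen brain, 2 without FFPE brain or either heart library, 3 without either liver library, and 9 without FFPE kidney. Gnmt, the hepatic glycine methyltransferase, was lower in liver (-1.48 ± 0.32, limma adjusted p = 0.00427), as were the methyltransferases Inmt (-1.63 ± 0.34, limma adjusted p = 0.00339) and Tpmt (-0.76, adjusted p = 0.0465) and the bile acid conjugating enzyme Baat (-2.22, adjusted p = 0.0435).

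Of 13 genes for cofactor supply 2 were higher in liver and 0 lower, both in the sulfate pathway: Papss1, which makes PAPS (143 and 159 CPM in liver, 47.7 to 115 elsewhere, limma adjusted p = 0.000608), and Bpnt1, which breaks down its by-product (0.59 ± 0.17, limma adjusted p = 0.025). That count was 1 without frozen brain, either heart or either liver library and 4 without frozen kidney. In the same list 3 genes were lower without FFPE kidney, and 1 without frozen kidney or FFPE liver. Of 12 regulators 3 were higher and 3 lower. Keap1, the inhibitor of Nrf2, differed by 1.28 ± 0.17 (limma adjusted p = 0.000152) and Nfe2l2, which encodes Nrf2, by 1.15 ± 0.22 (limma adjusted p = 0.00174), while Mafg, whose small Maf protein pairs with Nrf2 on DNA, was lower (-1.76 ± 0.22, limma adjusted p = 0.000115). The repressor Bach1 was the third higher regulator, and Nr1i3 (CAR) and Hnf4a were lower. Without either liver library 1 regulator was lower. Of 6 genes that reverse conjugation 1 was higher: Gusb, the lysosomal beta-glucuronidase (1.03 ± 0.14, limma adjusted p = 0.000208), called in each fit that left out 1 library. Of 11 efflux transporters 1 (Abcb1a) was higher and 3 (Abcb11, Abcb4 and Abcc1) were lower. There were 0 higher without any 1 of the brain, heart or liver libraries and 2 without frozen kidney or after centring. There were 0 lower without either liver library or after centring, and 1 without either heart library.

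The genes whose pattern over the 8 libraries was most like that of Ugt1a5, among the 12982 better covered genes outside the families (mean not below that of the middle gene), were Fut8 (Pearson r = 0.979), Osgin1 (0.978), Gpld1 (0.977), Ckap5 (0.972) and Col10a1 (0.968). These are descriptions over 8 libraries that share 4 organs and their depth.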

How the data were processed

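The authors aligned reads to mm10 with Bowtie2, counted them with featureCounts and used limma, per the submitters' processing notes. Not stated there are versions, whether exons or gene bodies were counted, strand, and what became of multiply mapped reads. The deposited values are log2 CPM for 27179 genes in 8 columns, with 0.5 added to each count, and all values stepped back to whole reads at a tolerance of 1e-04 (100% of values). Reads were used for depth, floors and the voom alternative only. The column names give neither antibody nor replicate, so the planned groups of 2 became 1 column per group.

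The test covered 25982 genes that reached 1 CPM in 2 or more libraries (1197 did not). The fit used limma 3.58.1 in R 4.3.3, as organ plus preservation with a variance trend (5 coefficients, 3 residual and 13.1 prior degrees of freedom). Each of the 6 comparisons had its own Benjamini-Hochberg adjustment, with a threshold of 0.05. Differences within 1 preservation are values with no test. The code was tested on simulated data. Coordinates and promoter windows came from RefSeq (GRCm38.p6), matched by Entrez ID, with coordinates for all 64 members and windows for 56.

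Called members were named up to 10 a direction, with the highest-mean member of each family, up to 3 called genes per list by smallest p, and 5 genes most like the member with the smallest liver p. Further members and list genes were named after their values were seen. Members and lists were chosen with earlier results of these data known. Alternatives were the filter, scaling, added CPM, weights, variance trend and leaving out each library.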

Additional observations from a re-analysis of the deposited data

Results flagged for a closer look

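In 14 cases a member's organ difference pointed one way in frozen and the opposite way in FFPE tissue, with the library of that organ above or below all others of its preservation. The search covered all 64 members in each of the 4 organs. The share of all genes with such cases was not worked out, so the count of 14 cannot be called many or few. None of these differences between preservations was tested, since each rests on single libraries.

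In liver, Gsta2 differed by -3.05 in frozen and 1.50 in FFPE tissue (log2, against the mean of the other 3 organs), from 2 and 19 reads. Gstz1 differed by -1.20 and 0.32, Sult1c1 by -0.51 and 0.81, and Sult2a6 by -1.35 and 1.49.

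In kidney, Sult1b1 differed by -1.59 in frozen and 0.38 in FFPE tissue, Sult2a4 by -1.39 and 0.29, and Gstm7 by -0.25 and 0.37. Gsto2 (0.68 and -0.16), Sult1c1 (0.32 and -0.67) and Sult2a3 (1.15 and -0.56) went the opposite way.

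In heart, Ugt1a2 differed by 2.03 in frozen and -0.64 in FFPE tissue, and Sult2b1 by -0.92 and 0.48. In brain, Gstm7 differed by 0.23 and -0.29, and Sult2a4 by 0.64 and -0.35.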

How the results depend on the processing

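No alternative reversed the direction of a called difference. Without the variance trend no gene of the table was called in the organ comparisons, and 0 members were called in any comparison. Quantile normalization left 1 higher and 4 lower members in liver, 2 higher and 0 lower in brain, and 0 lower in liver minus kidney. Array quality weights gave 15 and voom weights 16 higher members in brain, with 3877 and 4097 of the 25982 genes tested higher. Array weights gave 0 lower members in liver minus kidney. With 1 CPM added before the log 1 member was lower in kidney. With no filter on low values 0 members were lower in FFPE and 0 in liver minus kidney. The causes of these changes were not tested.

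Leaving out each library in turn gave 0 to 2 higher and 5 to 17 lower members in liver, 0 to 10 lower in kidney, 0 to 18 higher and 0 to 1 lower in brain, 0 to 2 higher in heart, 0 to 1 lower in FFPE, and 0 to 8 higher and 0 to 4 lower in liver minus kidney. In these fits the lone library of an organ is assumed to vary like the others. The number of called genes over the whole table changed with the library left out as well, so these counts do not describe the members alone. No paired analysis was possible because the columns carry no replicate number. With the window of 250 bases before the start alone, at most 4 CG were found in 76.8% of member windows and 44.5% of all. Counts of few reads limit most members.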

Other observations

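The genes next to the enzyme clusters were looked at for their liver difference as values, taking the 3 nearest tested genes on each side of each cluster. Of these 54 neighbours, 6 were called higher and 6 lower in liver, to be read against the 11.8% of all genes called higher and the 7.42% called lower. Of the 18 that lay nearest on their side, 3 were higher and 3 lower. The lower 3 were Mroh2a, 6.989 kb from the Ugt1a cluster (-0.69, limma adjusted p = 0.00398), Ddt, 0.743 kb from the Gstt genes (-1.64, limma adjusted p = 0.0439), and Tmem14a, 10.398 kb from Gsta3 (-4.21, limma adjusted p = 0.00397). The higher 3 were Ampd2, 28.88 kb from the Gstm genes (0.46, limma adjusted p = 0.0403), Ythdc1, 53.111 kb from the Ugt2 cluster (0.77, limma adjusted p = 0.00515), and Capsl, 65.061 kb from the Ugt3a pair (0.89, limma adjusted p = 0.0105). Farther out, Cdk2ap2, Csn2 and Spef2 were lower and Gm5075, Skp2 and Susd2 higher.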
